A study of Mus musculus with 10 samples.

Results

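Genes with 2 separate 3′ ends were examined in mouse embryonic stem cells (ESC) that carry mutations in DIDO3, the largest protein made from the Dido1 gene. The measured units were features, each the 3′ untranslated region of an annotated transcript with 2 kb of sequence added downstream (mm10). There were 43031 features, which lay at 28730 distinct sites. A gene was included if it had exactly 2 sites that shared no base with each other or with another feature on the same strand, and if each site exceeded 1 TPM in at least 1 library. TPM is the length-normalised share of a feature in its library. Of 19379 genes with a site, 3949 had exactly 2, and these were separate in 2416. A site was at or under 1 TPM in every library in 856 of them, which left 1560 genes and 3120 sites. Just inside the limit were P4ha3 (highest TPM of its weaker site 1.01), Dcp1a (1.01) and Nell2 (1.01), and just outside were Nup54 (0.992), Il1rl1 (0.987) and Rab36 (0.972). Both sites exceeded 1 TPM in some library of every group in 1287 of the 1560 genes, and in the other 273 they did so in only some groups or in none. A gene with a site under 1 TPM throughout a group was included through another group, and the calls below were not split by this.

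RNA of C57BL/6 ESC was sequenced from 3 groups with 3 libraries each. WT cells carried no Dido1 mutation. DIDO3ΔE16 cells lack exon 16, the exon specific to DIDO3, after deletion of a floxed allele with Sox2-Cre. DIDO3ΔCT+HADIDO3 cells carry a C-terminal deletion of DIDO3 and express HA-tagged DIDO3, and cells with the deletion alone were not analysed here, so that the deletion and the added protein cannot be told apart. All cells were grown with leukemia inhibitory factor, on mitomycin C-treated embryonic fibroblasts or on gelatin. Of the 4 WT samples in the labels, numbers 2 and 3 were read as a single library, called WT replicate 2-3 here. Nothing in the sources says that replicates were separate clones or cultures, so that p-values measure only the spread between these libraries, which may be technical. The library names begin with C7A9 for WT replicates 1 and 4 and with C79M for all other libraries. This prefix is called the flow cell family here. It is a reading of the names that no label states, and the full names differ within a prefix.

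Most mammalian genes can end their transcripts at more than 1 polyadenylation site. Ends within the same terminal exon change the length of the 3′ untranslated region, whereas an end inside an intron removes the coding exons beyond it and gives a shorter protein or a non-coding RNA. Cleavage usually follows a short AAUAAA or AUUAAA signal (AATAAA or ATTAAA in DNA) that is bound by the cleavage and polyadenylation complex, and splicing factors and elongating RNA polymerase II affect which end is used.

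For 1322 of the 1560 genes the upstream 3′ end lay in an intron of a longer transcript of the same gene, for 218 it lay in an exon of one, and for 20 in neither. The 3′ ends were a median of 11772.5 bp apart (quartiles 6323 and 23391). The downstream end added at least 1 coding exon in 1521 genes, with a median of 5 coding exons between the ends. These are therefore mostly genes with an intronic 3′ end. A short and a long form of 1 untranslated region share bases, so that the choice of genes left out such pairs in advance. All but 2 of them, 1558, were protein coding. An upstream site in an intron also collects reads from unspliced RNA, and one that holds exons of a longer transcript collects reads from that transcript. No such exon base lay in the upstream site of 574 genes. The median site length was 2696 bp upstream and 3073 bp downstream, and 2 kb of each site was sequence added past the annotated end. Each site thus also collects reads of RNA that runs past its 3′ end. A change in share can therefore not be read as a change in the choice of end alone.

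Annotated transcript ends (GENCODE M21, GRCm38) matched the upstream 3′ end of 1195 genes and the downstream end of 1269. AATAAA or ATTAAA was present on the transcript strand within the last 40 bases of 463 matched upstream ends (38.7%) and of 1054 matched downstream ends (83.1%), beside 70.1% of all 22499 matched sites. The last 30 bases of both ends are shown for 5 genes whose share changed, with the hexamer in capitals where one was found. Ttc13, Nectin2 and Cpne8 have one of these hexamers at the upstream end, whereas Trio and Xaf1 have one at the downstream end only.
Ttc13 upstream, chr8:124707981-124708010, minus strand: tgaaacattaAATAAAaaatgtcatttctg
Ttc13 downstream, chr8:124671327-124671356, minus strand: ataaggtccATTAAAggctgcagtttcaaa
Cpne8 upstream, chr15:90643323-90643352, minus strand: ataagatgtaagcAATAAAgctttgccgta
Cpne8 downstream, chr15:90487481-90487510, minus strand: tttaagtacctATTAAAacatttaaaagga
Nectin2 upstream, chr7:19724161-19724190, minus strand: tcaggagctAATAAAtgccttgtcggaaaa
Nectin2 downstream, chr7:19716644-19716673, minus strand: ctactttgataaagtcttgtgttttctgtg
Trio upstream, chr15:27746902-27746931, minus strand: ttataaatttttaaatacatttccctaaaa
Trio downstream, chr15:27730649-27730678, minus strand: tattttaaaaaATTAAAcatatttgcctga
Xaf1 upstream, chr11:72308739-72308768, plus strand: aaaaatagaaacagctcaacaaagcgagag
Xaf1 downstream, chr11:72313704-72313733, plus strand: gctccaaAATAAActtatctctgcatcctt

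Coverage multiplied by site length added up to 1.46 to 2.61 Gb per library, and 1 TPM stood for 0.434 to 0.775 reads per base. The 10 ESC markers examined were all above 1 TPM in every library, with a summed TPM of 4871 to 6133 in WT, 6458 to 6931 in DIDO3ΔE16 and 5133 to 7049 in DIDO3ΔCT+HADIDO3. The summed TPM of 16 feeder fibroblast markers was 118 to 161 in WT, 329 to 348 in DIDO3ΔE16 and 114 to 122 in DIDO3ΔCT+HADIDO3. The number of these markers above 1 TPM was 12 to 13, 13 to 14 and 6 to 7, and 2, 1 to 2 and 3 to 5 of them were at 0. Fibroblast markers were thus highest in every DIDO3ΔE16 library, and their part in the comparisons was not tested. Fewer cells of a type and less RNA per cell cannot be told apart in these data.

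The downstream share, the TPM of the downstream site as a percentage of the summed TPM of both sites, was used to describe each gene. Most of these genes were read mainly at the downstream end. The median share over the 1560 genes was 78.1%, 77.9% and 78.1% in the WT libraries. It was 78.8%, 78.3% and 79.6% in the DIDO3ΔE16 libraries and 75.8%, 75.3% and 75.6% in those of DIDO3ΔCT+HADIDO3. The 3 groups did not overlap, with DIDO3ΔE16 highest and DIDO3ΔCT+HADIDO3 lowest. The share exceeded 50% for 1161 to 1174 genes in WT, 1189 to 1204 in DIDO3ΔE16 and 1124 to 1135 in DIDO3ΔCT+HADIDO3. Within a group the SD of a gene's share had a median of 1.49 percentage points for the WT libraries, 1.51 for DIDO3ΔE16 and 1.42 for DIDO3ΔCT+HADIDO3.

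The 4 most abundant genes gave nearly the same share in all 9 libraries, apart from 1 value. Eef2, the translation elongation factor that moves the ribosome along the mRNA, had a downstream share of 15.4 to 16.2%, and its upstream 3′ end lay in an exon of the longer transcripts. Nedd4, a ubiquitin ligase of membrane proteins, lay between 86.4 and 87.7%. Eif4b, a translation initiation factor, lay between 91.4 and 92.6%. Plppr3, a membrane protein of the lipid phosphatase-related family, had a share of 45.1 to 50.6% in 8 libraries and 96.5% in DIDO3ΔE16 replicate 1, where its upstream site was listed at 26.1 TPM instead of 576 to 835.

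Jumps of this kind between libraries of the same group affected 192 genes, counted as those whose share ranged over more than 30 percentage points in at least 1 group. Such a range was seen for 97 genes among the WT libraries, for 80 among those of DIDO3ΔE16 and for 100 among those of DIDO3ΔCT+HADIDO3. A site can be listed several times, once for each transcript that ends there, and its TPM is the sum of these features. The range exceeded 30 points in 13 of the 671 genes with each site listed as 1 feature (1.94%), and in 179 of the 889 genes with a site listed as 2 or more (20.1%). In each library, 14 to 30 genes stood more than 30 points from both other libraries of the group, which lay within 10 points of each other. Ctnnb1, the beta-catenin gene, had a downstream share of 0.838, 64.3 and 0.986% in WT, 7.82, 62.7 and 0.849% in DIDO3ΔE16, and 0.78, 64.0 and 63.8% in DIDO3ΔCT+HADIDO3. Its upstream site stayed at 376 to 451 TPM while the downstream site was listed at 3.17 to 38.2 TPM in 5 libraries and at 711 to 726 TPM in the other 4. Esrrb, a nuclear receptor of the pluripotency network, was likewise at 16.9, 98.2 and 29.4% in WT and at 18.9% in DIDO3ΔCT+HADIDO3 replicate 2, and at 97.4 to 97.9% in the other 5 libraries. Of the genes called below, 8 in DIDO3ΔE16 against WT, 1 in DIDO3ΔCT+HADIDO3 against WT and 17 in DIDO3ΔE16 against DIDO3ΔCT+HADIDO3 had a range over 30 points in some group.

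**Figure D1:**
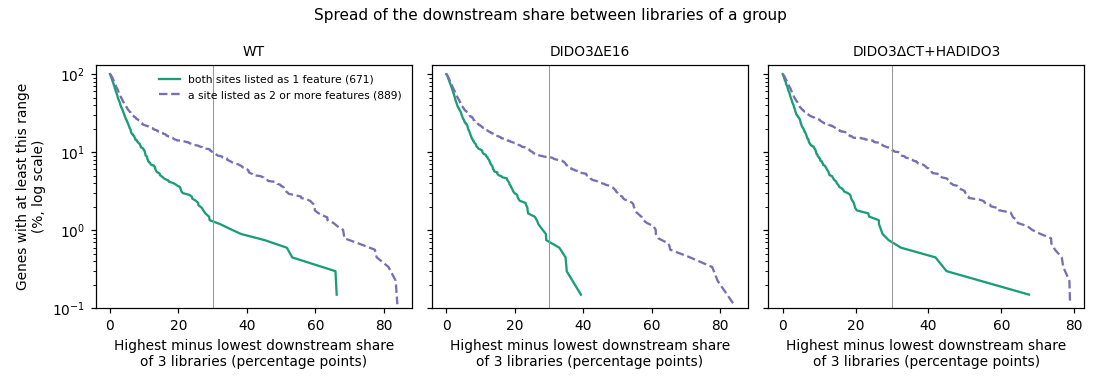
Range of the downstream share between the 3 libraries of a group (x axis, percentage points) against the percentage of genes with at least this range (y axis, log scale), one panel per group. Genes with each site listed as 1 feature (solid line, 671) fall off earlier than genes with a site listed as 2 or more features (dashed line, 889), and the vertical line marks 30 points.

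For the comparisons, the log2 ratio of downstream to upstream TPM, with 0.1 TPM added to each, was fitted with limma over all 2097 genes with at least 2 separate sites and adjusted by Benjamini-Hochberg. The other 537 fitted genes had 3 or more sites, and their most downstream site was set against the sum of the rest. A gene was called where the absolute log2 difference reached 0.7 with an adjusted p under 0.05. An exact permutation test of 1 gene with 3 libraries against 3 cannot give a p below 0.1.

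DIDO3ΔE16 was compared with WT to see how the downstream share differs in cells without the DIDO3-specific exon. More genes gained than lost downstream share. The share rose in 125 of the 1560 genes, among them Mbp, Mrps15, Scn8a and Galnt10, and fell in 48, among them Pex6, Cpne8 and Kat8. The 173 called genes were 11.1% of the 1560, beside 11.4% of all 2097 fitted genes. Higher calls were 8.01% beside 8.25%, and lower calls 3.08% beside 3.15%. The 1560 genes are most of the 2097, so that these shares lie close in any case. Of the 537 genes with 3 or more sites, 66 were called (12.3%), 48 higher and 18 lower, and the difference in frequency was not tested. The median log2 difference was 0.08 over the 1560 genes and 0.08 over all fitted genes. The libraries of both groups did not overlap in any of the 173 called genes. Over the 1560 genes they did not overlap in 557 (35.7%), beside 35.8% of all fitted genes. With at least 10 percentage points of difference required as well, 85 genes rose and 31 fell. Among the 671 genes with each site listed as 1 feature, 88 were called, of which 63 rose and 25 fell. This stands beside 239 of all 2097 fitted genes (11.4%).

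Mbp, which encodes myelin basic protein, showed the largest rise in percentage points among called genes with a mean summed TPM of at least 5 in both groups. Its share was 10.9, 9.13 and 10.6% in WT and 61.7, 62.2 and 59.5% in DIDO3ΔE16. The groups lay far apart, and the downstream site rose from 0.633–0.888 to 7.71–8.52 TPM while the upstream site was at 6.3–7.48 TPM in WT and 4.68–5.8 TPM in DIDO3ΔE16. The difference in the log2 ratio was 3.63 ± 0.13 (SE, adjusted p = 0.000166, limma with Benjamini-Hochberg). The downstream site of Mbp is listed as 8 features. This site was under 1 TPM in every WT library, so that Mbp met the level rule only outside WT.

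Mrps15, a protein of the small subunit of the mitochondrial ribosome, has each site listed as 1 feature (chr4:126051433-126054264 and chr4:126055518-126057536). Its share was 10.3, 10.5 and 8.91% in WT and 50.8, 57.0 and 54.9% in DIDO3ΔE16. Every DIDO3ΔE16 library thus lay above every WT library by about 40 points, and both sites took part. The upstream site fell from 36.7–37.9 to 22.4–24.6 TPM, and the downstream site rose from 3.61–4.36 to 25.5–30.8 TPM. The log2 ratio differed by 3.40 ± 0.13 (SE, adjusted p = 0.000167, limma). The downstream span of Mrps15 is little longer than the added 2 kb, so that nearly all of it lies past the annotated 3′ end. Whether its rise reflects use of this end or RNA that runs past it was not tested.

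Scn8a encodes a voltage-gated sodium channel and Galnt10 an enzyme that starts mucin-type O-glycosylation. The share of Scn8a was 6.97, 6.53 and 7.66% in WT and 44.3, 46.8 and 47.1% in DIDO3ΔE16. That of Galnt10 was 56.5, 55.2 and 55.8% in WT and 92.4, 93.7 and 90.7% in DIDO3ΔE16. For Galnt10 both sites were called, since the upstream site fell from 23.3–24.7 to 4.3–6.86 TPM and the downstream site rose from 29.5–30.3 to 59.5–66.6 TPM. For Scn8a the downstream site was called alone, with 1.07–1.37 TPM in WT and 9.4–10.4 TPM in DIDO3ΔE16. The log2 ratio differed by 3.40 ± 0.12 for Scn8a (SE, adjusted p = 0.000166) and by 3.23 ± 0.16 for Galnt10 (adjusted p = 0.000428, limma).

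By the same rule, the rest of the 8 largest rises were in Zfp692, a zinc finger protein, Zdhhc6, a palmitoyltransferase, Slc11a2, a transporter of iron and other divalent metals, and Atp9a, a P4-type ATPase. Zfp692 had 2.67, 1.19 and 1.66% in WT and 50, 50.5 and 53.7% in DIDO3ΔE16. Its downstream site, listed as 2 features and overlapped by a feature on the opposite strand, went from 0.819–2.35 to 59.5–63.9 TPM. Slc11a2 had 17.9, 14.9 and 19.2% in WT and 63.2, 48.3 and 48.8% in DIDO3ΔE16, and its downstream site is also overlapped on the opposite strand. Zdhhc6 had 44.0, 49.9 and 37.4% in WT and 84.0, 82.6 and 83.9% in DIDO3ΔE16, again with an overlap on the opposite strand at the downstream site. Atp9a had 37.9, 71.5 and 73.5% in WT and 96.6, 97.0 and 97.5% in DIDO3ΔE16, where its upstream site fell from 9.43–10.2 to 0.299–1.04 TPM. WT replicate 1 stood apart for Atp9a at the downstream site, with 5.75 TPM beside 23.8 and 28.2 TPM.

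Among the falls, Pex6, an ATPase of peroxisome assembly, has each site listed as 1 feature. Its share was 61.0, 66.5 and 60.8% in WT and 26.4, 29 and 22.4% in DIDO3ΔE16. The groups did not overlap. The upstream site rose from 13.4–15.9 to 29.1–34.2 TPM while the downstream site fell from 21.6–26.7 to 9.89–11.9 TPM, and the log2 ratio differed by -2.26 ± 0.17 (SE, adjusted p = 0.00128, limma). A feature on the opposite strand overlaps its downstream site.

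Kat8, the histone H4 acetyltransferase of the MSL and NSL complexes, went from 80.4, 80 and 79% in WT to 48.8, 54.6 and 61.3% in DIDO3ΔE16. Its upstream site was at 10.7–11.2 and 10.9–12.6 TPM, and its downstream site fell from 42.1–44.0 to 12.0–17.3 TPM. Cpne8, a calcium-dependent phospholipid-binding copine, went from 81.0, 76.9 and 84.2% to 50.1, 51.4 and 58.6%, also through its downstream site. In neither gene did the groups overlap. A feature on the opposite strand overlaps the downstream site of Kat8. Kat8 and Pex6 were also called lower in DIDO3ΔCT+HADIDO3 against the same WT libraries, at 64.6 to 68.2% and at 46.1 to 51.7%.

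Snapc3, a subunit of the complex that activates snRNA genes, moved at the other end, with an upstream site at 4.88–6.75 TPM in WT and 13.3–20.9 TPM in DIDO3ΔE16. Its share was 77.2, 71.4 and 73.8% and then 48.3, 55.2 and 56.6%, and its downstream site is overlapped on the opposite strand. Hacd4, an enzyme of very-long-chain fatty acid synthesis, had 83.6, 89.2 and 88.3% in WT and 76.6, 65.3 and 63.0% in DIDO3ΔE16. Its upstream site is overlapped on the opposite strand, and neither site was called alone. Dcst1, a transmembrane protein, had 98.9, 96.5 and 100% in WT and 67.9, 66.5 and 66.6% in DIDO3ΔE16, with an upstream site at 0.103, 0.361 and 0 TPM and then at 3.77 to 4.42 TPM. Like Mbp, it met the level rule only outside WT.

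Both of the largest falls were at downstream sites listed as 2 or more features, Tlk2 and Safb. Tlk2, a kinase of chromatin assembly, had 87.8, 87.8 and 85.7% in WT and 20.5, 25.4 and 45.9% in DIDO3ΔE16. Safb, a scaffold attachment factor that binds RNA and DNA, had 61.2, 63.2 and 64.9% in WT and 12.1, 13.0 and 12.8% in DIDO3ΔE16. The downstream site of Safb fell from 68.8–69.3 to 4.41–5.19 TPM, but it was also listed at 4.78 TPM in DIDO3ΔCT+HADIDO3 replicate 3, beside 90.8 and 96.3 TPM in replicates 1 and 2. Tlk2 was at 27.3% in DIDO3ΔCT+HADIDO3 replicate 2, beside 77.7 and 74.2%. Setd5, a protein with a SET domain that the study names, had 99.2, 99.3 and 99.6% in WT and 81.3, 80.8 and 89.0% in DIDO3ΔE16, and its downstream site was at 18.3 TPM in DIDO3ΔCT+HADIDO3 replicate 3 beside 240.3 and 241 TPM. Low values of these sites thus occurred in single libraries of another group too, and whether the listing of several features at 1 site plays a part in these falls was not tested.

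**Figure D2:**
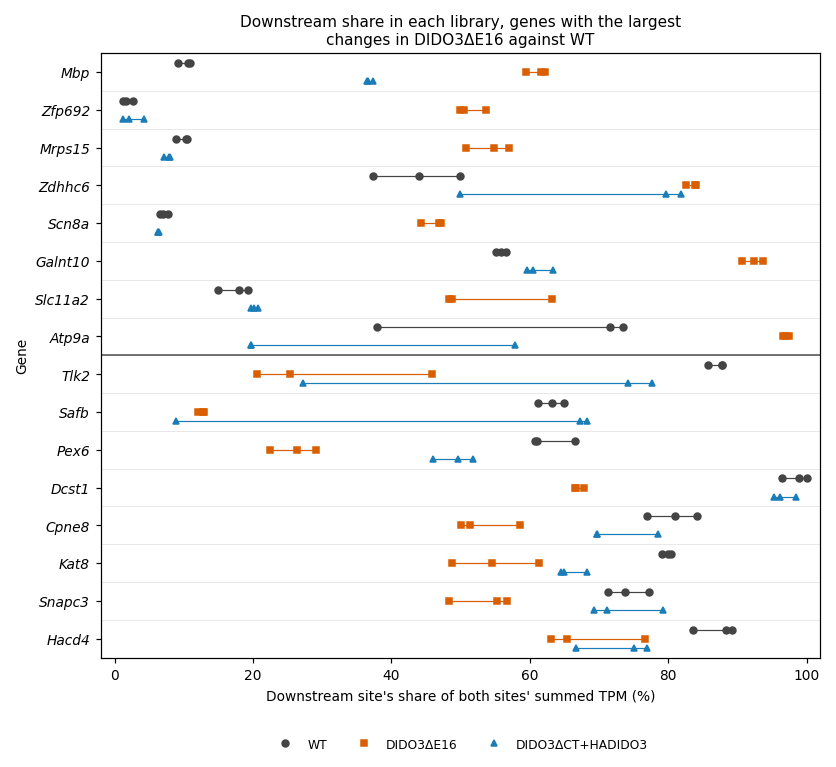
Downstream share (x axis, % of the summed TPM of both sites) of the 8 genes with the largest rise and the 8 with the largest fall in DIDO3ΔE16 against WT (y axis). Each point is 1 library (circles WT, squares DIDO3ΔE16, triangles DIDO3ΔCT+HADIDO3), lines span the 3 libraries of a group, and the horizontal line parts rises from falls. The squares of Mbp lie at 59.5 to 62.2% and its circles at 9.13 to 10.9%.

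Most called genes had a called change at the upstream or the downstream site itself. Site TPM was tested in the same way over all sites above 0 TPM in every library of the comparison, after scaling of libraries by a trimmed mean. Downstream sites of the 1560 genes were called higher in 146 and lower in 67 of 1544 tested, and upstream sites were called higher in 90 and lower in 122 of 1540 tested. Over all 21063 sites tested, 10.2% were higher and 4.94% lower. Without scaling the upstream sites split into 97 higher and 96 lower, and with quantile normalization into 63 higher and 187 lower. Of the 125 genes with a higher share, the downstream site was called higher in 63 and the upstream site lower in 52, with both in 9, and neither site was called in 12. Of the 48 genes with a lower share, the upstream site was called higher in 25 and the downstream site lower in 16, with both in 2.

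DIDO3ΔCT+HADIDO3 was compared with WT in the same way. More genes lost than gained downstream share in these cells. It fell in 108 of the 1560 genes, among them Ttc13, Mbd2, Trio and Klf3, and it rose in 34, among them Ptcd3, Xaf1 and Hemk1. The 142 called genes were 9.1%, beside 10.5% of all 2097 fitted genes. Lower calls were 6.92% beside 8.44%, and higher calls 2.18% beside 2.1%. Genes with 3 or more sites were called in 79 of 537 cases (14.7%), 69 of them lower, and this difference in frequency from genes with 2 sites was not tested. The median log2 difference was -0.16 over the 1560 genes and -0.19 over all fitted genes. The log2 ratio was higher than in WT in 515 of the 1560 genes (33.0%), and lower in most others. Groups did not overlap in the 142 called genes. Over the 1560 genes they did not overlap in 605 (38.8%), beside 41.4% of all fitted genes. With at least 10 percentage points required in the direction of the call, 51 fell and 21 rose. Among the 671 genes with each site listed as 1 feature, 71 were called, of which 58 fell and 13 rose. This stands beside 221 of all 2097 fitted genes (10.5%). Of the 142 genes, 1 had a share that moved against its log2 ratio. It was Col5a2, a fibrillar collagen chain of fibroblasts, which is named because of this. Its downstream site was at 6.01 to 6.55 TPM in WT and 0.052 to 0.131 TPM in DIDO3ΔCT+HADIDO3, with 2 of 3 upstream values at 0, so that the added 0.1 TPM set the ratio. With 10 points required in either direction, Col5a2 is counted too and the lower genes are 52.

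Ttc13, a protein with tetratricopeptide repeats whose upstream end carries its own AATAAA, had the largest fall. Its share was 92.4, 93.1 and 92.2% in WT, 94.9, 96.3 and 97.6% in DIDO3ΔE16, and 56.9, 55.8 and 55.6% in DIDO3ΔCT+HADIDO3. The 3 libraries of DIDO3ΔCT+HADIDO3 lay about 36 points below WT. The change was at the upstream site (chr8:124705981-124709878), with 3.02–3.21 TPM in WT and 26.0–26.8 TPM in DIDO3ΔCT+HADIDO3, whereas the downstream site was at 35.5–40.8 and 33.3–34.4 TPM. The log2 ratio differed by -3.24 ± 0.08 (SE, adjusted p = 8.94e-05, limma).

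Ctnnbl1, a spliceosome-associated protein, likewise changed at the upstream site. Its share was 69.8, 63.3 and 74.1% in WT and 37.0, 43.0 and 35.9% in DIDO3ΔCT+HADIDO3, and the upstream site went from 2.48–3.59 to 11.9–15.1 TPM. The groups did not overlap, and each site is listed as 1 feature. In Blm, a RecQ helicase of homologous recombination, the upstream site rose from 10.9–14.2 to 23.4–30.1 TPM and the downstream site fell from 23.5–26.1 to 15.9–17.2 TPM. The share of Blm was 64.7, 68.4 and 66.0% in WT and 40.4, 41.1 and 34.6% in DIDO3ΔCT+HADIDO3.

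Mbd2, which binds methylated CpG, and Trio, a guanine nucleotide exchange factor of small GTPases, also changed at both sites. Mbd2 had 66.0, 65.5 and 59.9% in WT and 28.9, 27.7 and 27.7% in DIDO3ΔCT+HADIDO3. Its upstream site rose from 7.47–9.59 to 20.8–23.8 TPM and its downstream site fell from 14.2–16.6 to 8.49–9.1 TPM, with a difference in the log2 ratio of -2.16 ± 0.12 (SE, adjusted p = 0.000887, limma). Trio had 81.5, 82.0 and 82.9% in WT and 47.8, 52.4 and 50.4% in DIDO3ΔCT+HADIDO3. All libraries of DIDO3ΔCT+HADIDO3 lay below all of WT in both genes. Klf3, a zinc-finger transcription factor named in the study, was called at its downstream site alone, and its share was 88.6, 89.6 and 87.2% in WT and 58.7, 59.3 and 59.1% in DIDO3ΔCT+HADIDO3.

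The largest rises were at downstream sites for 5 of 6 genes. Xaf1, an inhibitor of the apoptosis inhibitor XIAP, had a share of 37.0, 44.5 and 43.4% in WT and 77.1, 80.0 and 78.1% in DIDO3ΔCT+HADIDO3. Its downstream site, the end with an AATAAA, rose from 4.87–5.51 to 40.1–45.2 TPM, and the upstream site was at 6.71–8.29 and 11.3–12.1 TPM. Hemk1, a methyltransferase of translation release factors, had 41.2, 51.0 and 52.0% in WT and 82.8, 80.6 and 80.6% in DIDO3ΔCT+HADIDO3. In Xaf1 and Hemk1 the DIDO3ΔE16 libraries lay within or next to the WT range, at 33.2 to 44.8% and 48.9 to 56.8%. The log2 ratio differed between DIDO3ΔCT+HADIDO3 and WT by 2.33 ± 0.15 for Xaf1 (SE, adjusted p = 0.00117) and by 2.22 ± 0.20 for Hemk1 (adjusted p = 0.00289, limma).

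Ptcd3, a mitochondrial translation factor, had 9.6, 12.3 and 7.17% in WT and 67.3, 64.8 and 62.0% in DIDO3ΔCT+HADIDO3. In DIDO3ΔE16 it was at 17.8, 70.6 and 71.2%, with replicate 1 apart, and was not called. Its downstream site is listed as 3 features and overlapped on the opposite strand. Ganc, a neutral alpha-glucosidase, and Mbp rose in both mutant groups, which share the WT libraries. Ganc had 34.2, 40.2 and 34.1% in WT, 57.1, 55.4 and 62.3% in DIDO3ΔE16, and 68.2, 62.2 and 58.5% in DIDO3ΔCT+HADIDO3. Mbp was at 36.6, 37.3 and 36.5% in DIDO3ΔCT+HADIDO3, between WT and DIDO3ΔE16. Ccl27a, a chemokine, was the exception among the 6, since its upstream site fell from 13.4–14.5 TPM in WT to 3.7–4.38 TPM. Features on the opposite strand overlap both of its sites. Its share was 53.4, 51.9 and 50.4% in WT, 66.7, 69.8 and 70.4% in DIDO3ΔE16, and 83.3, 81.5 and 80.3% in DIDO3ΔCT+HADIDO3.

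**Figure D3:**
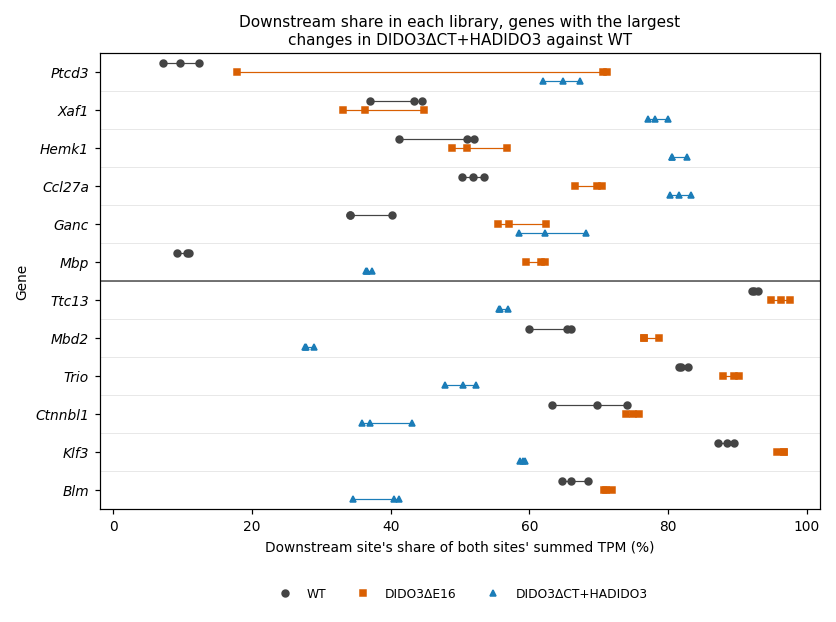
Downstream share (x axis, % of the summed TPM of both sites) of the 6 genes with the largest rise and the 6 with the largest fall in DIDO3ΔCT+HADIDO3 against WT (y axis), drawn as in the plot for DIDO3ΔE16. The triangles of Ttc13, Mbd2, Trio, Ctnnbl1, Klf3 and Blm lie left of their circles, and their squares overlap the circles or lie right of them.

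Upstream sites were called higher in 196 and lower in 82 of 1540 tested in DIDO3ΔCT+HADIDO3 against WT, and downstream sites higher in 110 and lower in 119 of 1538, beside 10.1% higher and 7.24% lower over all 20879 sites tested. Without scaling, downstream sites split into 141 higher and 84 lower. Of the 108 genes with a lower share, the upstream site was called higher in 50 and the downstream site lower in 44, with both in 6, and neither site was called in 18. Of the 34 with a higher share, the upstream site was called lower in 17 and the downstream site higher in 15, with both in 3.

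**Figure D4:**
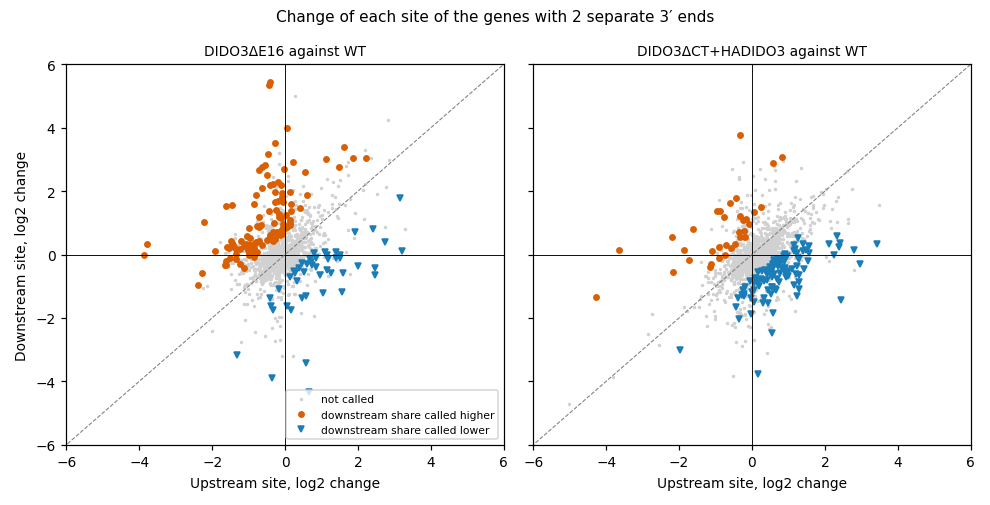
Log2 change of the upstream site (x axis) and of the downstream site (y axis) of each gene in DIDO3ΔE16 against WT (left) and DIDO3ΔCT+HADIDO3 against WT (right), for genes with both sites tested. Circles are genes with a higher downstream share (125 and 34 called), triangles genes with a lower share (48 and 108 called), grey points genes not called, and the dashed line marks equal change of both sites.

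The mutant groups were then compared with each other, since both are measured against the same WT libraries. This comparison gave the most calls. DIDO3ΔE16 had the higher share in 297 of the 1560 genes and the lower share in 70, and the 367 called genes were 23.5%, beside 24.1% of all fitted genes. Higher calls were 19% beside 19.8%, and lower calls 4.49% beside 4.29%. The median log2 difference was 0.24 over the 1560 genes and 0.26 over all fitted genes. Of the 297 genes, the upstream site was called lower in DIDO3ΔE16 in 166 and the downstream site higher in 125, with both in 30. Upstream sites were called lower in 343 and higher in 121 of 1538 tested, and downstream sites higher in 205 and lower in 143 of 1547, beside 13.9% higher and 13.4% lower over all 21172 sites.

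**Figure D5:**
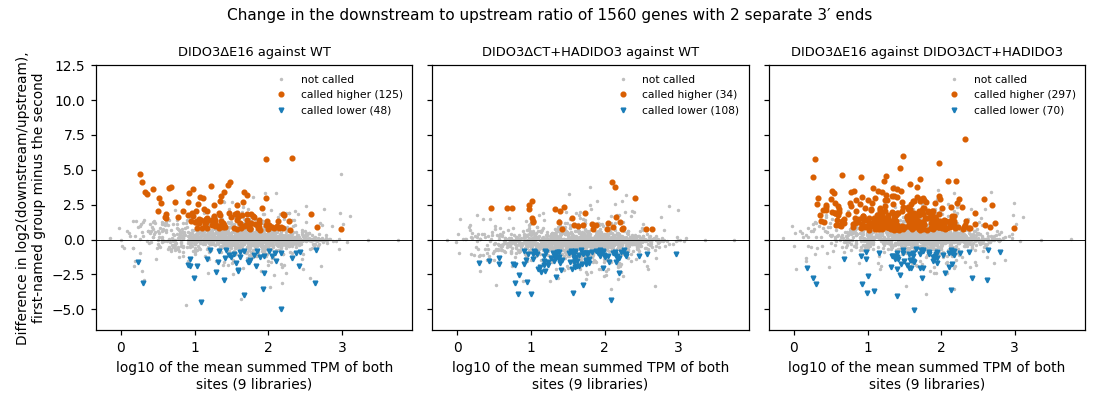
Difference in log2(downstream/upstream) TPM (y axis, first-named group minus the second) of the 1560 genes against log10 of their mean summed TPM over 9 libraries (x axis), one panel per comparison. Circles are genes called higher (125, 34 and 297), triangles genes called lower (48, 108 and 70), and grey points genes not called.

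The largest differences were seen in Atp9a, Eif2b3, Rmnd1 and Tnrc18, which were higher in DIDO3ΔE16, and in Xaf1, Brap, Dcst1 and Hemk1, which were lower. Tnrc18, a chromatin-associated protein with trinucleotide repeats, has each site listed as 1 feature, with an overlap on the opposite strand at the downstream site. Its share was 34.5, 44.8 and 41.6% in WT, 73.1, 71.3 and 72.5% in DIDO3ΔE16, and 23.6, 21.5 and 23.6% in DIDO3ΔCT+HADIDO3. The 3 groups did not overlap, and the downstream site carried the difference, with 20.4–23.4 TPM in DIDO3ΔE16 and 3.77–4.22 TPM in DIDO3ΔCT+HADIDO3. The log2 ratio differed by 3.10 ± 0.09 (SE, adjusted p = 3.82e-05, limma).

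Rmnd1, which is needed for mitochondrial translation, and Eif2b3, a subunit of the exchange factor eIF2B, differed at the upstream site. Rmnd1 had 80.5, 84.6 and 79.3% in DIDO3ΔE16 and 30.6, 17.9 and 36.3% in DIDO3ΔCT+HADIDO3, with an upstream site at 3.82–4.24 and 23.5–27.2 TPM. Eif2b3 had 55.5, 78.3 and 78.7% in DIDO3ΔE16 and 2.81, 35.1 and 5.82% in DIDO3ΔCT+HADIDO3, with an upstream site at 2.67–3.74 and 18–20 TPM. The downstream site of Eif2b3, listed as 3 features, jumped between libraries of every group, from 0.579 to 13.8 TPM. Atp9a had 19.6, 57.8 and 19.7% in DIDO3ΔCT+HADIDO3, where its upstream site was at 22.2–25.4 TPM. Brap, a BRCA1-associated ubiquitin ligase, had 20.1, 21.4 and 19.4% in DIDO3ΔE16 and 53.4, 51.7 and 49.3% in DIDO3ΔCT+HADIDO3, and WT replicate 1 stood apart at 65.1% beside 16.4 and 23.3%.

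A gene can be called in opposite directions in both comparisons with WT, as Tcerg1l, Ccdc171, Tnrc18 and Mbd2 were. These are the 4 such genes with the largest difference between the mutant groups. Tcerg1l had 32.6, 36.1 and 38.8% in WT, 100, 100 and 95.2% in DIDO3ΔE16, and 9.52, 20.8 and 6.01% in DIDO3ΔCT+HADIDO3. It was the weakest of the 4, and its upstream site was listed at 1.46–2.08 TPM in WT and at 0, 0 and 0.075 TPM in DIDO3ΔE16. Tcerg1l thus met the level rule only outside DIDO3ΔE16. Ccdc171, a coiled-coil protein, had 71.0, 69.5 and 68.7% in WT, 85.8, 89.2 and 88.7% in DIDO3ΔE16, and 35.8, 33.6 and 44.8% in DIDO3ΔCT+HADIDO3. Mbd2 had 76.6, 76.5 and 78.7% in DIDO3ΔE16. The WT libraries lay between both mutant groups in each of the 4 genes, without overlap.

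The genes were also read by function, from lists chosen with earlier results of these data known. For every list below, the counts stand beside 11.4% of all 2097 fitted genes called in DIDO3ΔE16 against WT. In DIDO3ΔCT+HADIDO3 against WT this share was 10.5%. The lists are small, and none was tested against these shares. Of 12 genes of mRNA 3′ end processing and termination with 2 separate ends, none was called in DIDO3ΔE16 against WT, and Pabpc1, the cytoplasmic poly(A)-binding protein, was called alone in DIDO3ΔCT+HADIDO3 against WT. Its share was 73.1, 67.5 and 72.1% in WT, 71.9, 67.9 and 71.3% in DIDO3ΔE16, and 79.7, 80.3 and 81.0% in DIDO3ΔCT+HADIDO3. The upstream site of Pabpc1 was lower in DIDO3ΔCT+HADIDO3, at 79.8–82.5 TPM beside 126–129 TPM in WT. Of 22 splicing and RNA-binding genes, none was called in DIDO3ΔE16 against WT and 1 was lower in DIDO3ΔCT+HADIDO3, Ptbp2, a neuronal polypyrimidine tract-binding protein, with 92.1, 93.4 and 91.9% in WT and 86.9, 87.9 and 83.1%. In limma, an unadjusted p under 0.05 was reached in DIDO3ΔE16 against WT by 1 of the 12 and 3 of the 22 genes, and by 568 of all 2097 fitted genes. Prpf8 (15.1 to 17.6%), Nono (80.5 to 82.7%) and Ddx6 (95.9 to 96.4%), which act in the spliceosome, in paraspeckles and in mRNA storage and decay, kept within a few points over the 9 libraries.

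Of 23 chromatin regulators, 2 rose and 1 fell in DIDO3ΔE16 against WT. They were Mbd2, Kdm3b, a demethylase of histone H3 lysine 9, and Setd5. In DIDO3ΔCT+HADIDO3 only Mbd2 was called, as a fall. Kdm3b had 87.3, 89.4 and 89.8% in WT and 93.0, 94.4 and 94.1% in DIDO3ΔE16, a small shift in share that came from the upstream site, at 15–19.5 and 8.08–10.6 TPM. The abundant members Hdac2, a histone deacetylase, and Ehmt2, a histone H3 lysine 9 methyltransferase, ranged over 35.9 to 39.2% and 19.5 to 20.6% in all libraries.

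Of 13 pluripotency and developmental transcription factors, Klf3 rose and Klf5 fell in DIDO3ΔE16 against WT, whereas 1 rose and 3, Klf3, Tfcp2l1 and Atf7, fell in DIDO3ΔCT+HADIDO3. The median log2 difference of the 13 was -0.01 in DIDO3ΔE16 against WT and -0.59 in DIDO3ΔCT+HADIDO3, beside 0.08 and -0.19 over all fitted genes. The changes were small in share for genes read almost wholly at 1 end. Klf5, a factor of ESC self-renewal, had 99.4, 99.2 and 99.4% in WT and 99.0, 98.8 and 99.0% in DIDO3ΔE16. Tfcp2l1, also a pluripotency factor, was between 99.7 and 99.9% in all 9 libraries, and its upstream site rose from 0.643–1.12 TPM in WT to 2.36–2.8 TPM in DIDO3ΔCT+HADIDO3.

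Of 22 kinases, phosphatases and growth-factor signalling genes, 2 rose and 1 fell in DIDO3ΔE16 against WT, and 3 fell in DIDO3ΔCT+HADIDO3. Il6st encodes gp130, the shared receptor subunit through which leukemia inhibitory factor signals. Its share was 98.3, 98.4 and 98.3% in WT, 99.2, 99.5 and 99.5% in DIDO3ΔE16, and 96.6, 96.8 and 96.6% in DIDO3ΔCT+HADIDO3. The upstream site was at 2.23–2.49 TPM in WT, 0.639–0.882 TPM in DIDO3ΔE16 and 4.71–5.17 TPM in DIDO3ΔCT+HADIDO3, so that the groups did not overlap although the share moved by under 3 points. Ppp2r5e, a regulatory subunit of protein phosphatase 2A, fell in both mutant groups, from 95.8–95.9% in WT to 90.5–91.6% and 91.2–93.0%, and Sos1, an exchange factor of Ras, fell in DIDO3ΔCT+HADIDO3 from 95.2–96.8% to 89.5–93.0%.

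Of 19 adhesion, polarity and cytoskeleton genes, 3 rose and 1 fell in DIDO3ΔE16 against WT, and 1 rose and 2 fell in DIDO3ΔCT+HADIDO3. Over all fitted genes 11.4% and 10.5% were called, and the difference was not tested. Nectin2, a cell adhesion molecule of adherens junctions with each site listed as 1 feature, had 66.9, 71.9 and 66.6% in WT, 84.8, 85.2 and 84.7% in DIDO3ΔE16, and 55.2, 48.9 and 52.1% in DIDO3ΔCT+HADIDO3. Its upstream end, which carries an AATAAA, was at 58.7–66.6 TPM in WT, 25.2–27.7 TPM in DIDO3ΔE16 and 92.4 to 101.5 TPM in DIDO3ΔCT+HADIDO3, while the downstream site ranged from 97.0 to 154 TPM. The log2 ratio of Nectin2 differed by 1.36 ± 0.11 in DIDO3ΔE16 (SE, adjusted p = 0.00146) and by -1.0 ± 0.14 in DIDO3ΔCT+HADIDO3 (adjusted p = 0.0103, limma). Jam2, a junctional adhesion molecule that the study names, had 52.1, 52.0 and 46.5% in WT, 77.6, 78.9 and 78.9% in DIDO3ΔE16, and 33.3, 32.1 and 32.1% in DIDO3ΔCT+HADIDO3. The downstream sites of Jam2 and Jam3 are overlapped on the opposite strand. Jam3, of the same family, fell in DIDO3ΔE16 from 77.3, 77.1 and 77.9% to 62.2, 61.0 and 62.5%, but DIDO3ΔCT+HADIDO3 replicate 1 was at 60.2% as well, beside 78.5 and 79.3%. Epb41l5, an epithelial polarity protein, rose in both mutant groups, from 84.6–87.0% to 93.6–94.7% and 91.3–93.5%. Of 30 genes of the ubiquitin system, none was called in either comparison with WT, while an unadjusted p under 0.05 in limma was reached by 3 and 5 of them, beside 568 and 678 of all 2097 fitted genes. Rnf10, a ubiquitin ligase of this list, was at 36.9 to 38.4% in WT, 30.1 to 31.4% in DIDO3ΔE16 and 40.9 to 42.1% in DIDO3ΔCT+HADIDO3, without overlap but under the fold threshold. Genes named from the lists because they were called were chosen after their values were seen.

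The called genes were also described by other properties. The choice of genes bears on the distance between the 3′ ends, since sites that share a base were left out. In DIDO3ΔE16 against WT, the median distance between the 3′ ends was 17168 bp for the 125 genes with a higher share, 11471.5 bp for the 48 with a lower share and 11462 bp for the 1387 not called. In DIDO3ΔCT+HADIDO3 against WT, it was 13918 bp for the 34 higher, 20207.5 bp for the 108 lower and 11320 bp for the 1418 not called. In each comparison the direction with more calls thus had the longer distance. The same genes also differed in level, which the choice of genes used too. The median summed TPM of the higher, lower and uncalled genes was 24.2, 43.8 and 53.8 in DIDO3ΔE16 against WT. In DIDO3ΔCT+HADIDO3 against WT it was 47.2, 37.8 and 52.1. The upstream end lay in an intron for 92.8%, 89.6% and 83.9% of the higher, lower and uncalled genes in DIDO3ΔE16, and for 91.2%, 89.8% and 84.2% in DIDO3ΔCT+HADIDO3.

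The genes called higher began at a lower share. The median WT share was 51.5% for the 125 genes with a higher share in DIDO3ΔE16, 86.8% for the 48 with a lower share and 77.9% for the rest, and the corresponding values in DIDO3ΔCT+HADIDO3 were 42.2%, 89.2% and 76.3%. The WT libraries enter these differences as well, so that a low starting value and a rise are not independent. One of the hexamers was found at 46 of 91 matched upstream ends (50.5%) of the genes with a higher share in DIDO3ΔE16, at 20 of 38 (52.6%) with a lower share and at 397 of 1066 (37.2%) not called. In DIDO3ΔCT+HADIDO3 it was at 12 of 28 (42.9%), 44 of 83 (53.0%) and 407 of 1084 (37.5%). At the matched downstream ends it was found for 69 of 99 higher (69.7%), 34 of 38 lower (89.5%) and 951 of 1132 uncalled genes (84.0%) in DIDO3ΔE16, and for 25 of 30 (83.3%), 68 of 86 (79.1%) and 961 of 1153 (83.3%) in DIDO3ΔCT+HADIDO3. A feature on the opposite strand overlapped a site in 26.4%, 45.8% and 21.6% of the higher, lower and uncalled genes in DIDO3ΔE16, and in 29.4%, 19.4% and 22.8% in DIDO3ΔCT+HADIDO3. StringTie was run with no strand option, so that reads of such neighbours cannot be told apart, and among the 1205 genes without such an overlap 92 rose and 26 fell in DIDO3ΔE16, and 24 rose and 87 fell in DIDO3ΔCT+HADIDO3. None of these properties was tested for a difference.

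Among the WT libraries, replicate 2-3 alone shares its flow cell family with the mutants. Against this library alone the median log2 difference was 0.10 in DIDO3ΔE16, beside 0.06 against WT replicate 1 and 0.03 against WT replicate 4, and -0.15 in DIDO3ΔCT+HADIDO3, beside -0.19 and -0.20. With the flow cell family as a covariate, 85 genes rose and 27 fell in DIDO3ΔE16, and 31 rose and 60 fell in DIDO3ΔCT+HADIDO3.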

How the data were processed

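RNA of 9 libraries, 3 each of WT, DIDO3ΔE16 and DIDO3ΔCT+HADIDO3 cells, was analysed from the deposited abundance tables. The authors' files come from StringTie (1.3.3) run on reference features only, after alignment by BWA-MEM (0.7.15) on mm10 and duplicate removal in Picard, which gave the deposited TPM and the mean coverage of each feature. TPM was used for all values, and coverage multiplied by length for depth. No strand option appears in the StringTie command. The number of reads was not given, so that no counting interval was made.

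Features with the same coordinates were summed to a site, and genes were assigned from GENCODE M21. The study tested TPM with edgeR, but TPM are not counts, so limma (3.58.1, R 4.3.3) was used here with moderation by level and robust estimation. For the share, log2((downstream + 0.1)/(upstream + 0.1)) was fitted over 2097 genes. For sites, log2(TPM + 0.1) was fitted after scaling by a mean of log2 ratios trimmed by 30% at each end. P-values were adjusted by Benjamini-Hochberg, and the fit was tested on simulated data. Fold changes are on the log2(TPM + 0.1) scale and understate changes at low TPM.

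The genes and lists were chosen with earlier results of these data known. Named genes were those in the study's text, the called genes with the largest rise or fall in share among those with a mean summed TPM of at least 5 and groups that do not overlap (8 and 8, 6 and 6, 4 and 4 for the 3 comparisons), 4 called in opposite directions, the 4 most abundant of each list and of all. Alternatives were other pseudocounts, filters, thresholds, scalings, site definitions and fits, a replicate block and leaving out each library. The restrictions to sites listed as 1 feature, to genes with a small range and to upstream sites without exon bases were added after seeing the data. Values of some genes named by the rule are not reported here.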

Additional observations from a re-analysis of the deposited data

Results flagged for a closer look

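The effect of both mutant groups against WT differed for 9 named genes, which were called higher in DIDO3ΔE16, lower in DIDO3ΔCT+HADIDO3, and called again when both mutant groups were compared directly with limma. The mean downstream share in DIDO3ΔE16 exceeded that in DIDO3ΔCT+HADIDO3 by 86.3 percentage points for Tcerg1l, 49.8 for Ccdc171, 49.4 for Tnrc18, 49.1 for Mbd2 and 45.9 for Jam2. The difference was 39.0 points for Trio, 37.4 for Klf3, 32.8 for Nectin2 and 2.73 for Il6st. Both comparisons with WT use the same 3 WT libraries, so that the mutant groups were also compared directly. The 9 genes were picked by their opposite calls against WT, and a difference between the mutant groups largely follows from this choice. Their direct calls are therefore no independent support. Each site is listed as 1 feature for Tcerg1l, Tnrc18, Mbd2, Jam2, Nectin2 and Il6st.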

How the results depend on the processing

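Counts of genes with a changed share kept within 1.5 times under the other pseudocounts, site definitions, fold threshold and fits, except as follows (higher and lower in parentheses). In DIDO3ΔE16 against WT, 173 genes became 110 (79, 31) with both sites above 5 TPM, 112 (85, 27) with the flow cell family as a covariate, 96 (72, 24) at an adjusted p under 0.01, 88 (63, 25) with each site listed as 1 feature, and 95 (67, 28) with no exon bases of a longer transcript upstream. Lower calls became 26 without overlap on the opposite strand and 31 with at least 10 percentage points. In DIDO3ΔCT+HADIDO3 against WT, 142 became 71 (21, 50), 91 (31, 60), 68 (18, 50), 71 (13, 58) and 93 (19, 74) in that order, and 73 (21, 52) with 10 points. In DIDO3ΔE16 against DIDO3ΔCT+HADIDO3, 367 became 190 (148, 42) above 5 TPM, 238 (188, 50) at 0.01, 181 (148, 33) with 1 feature, 206 (170, 36) with no exon bases and 224 (184, 40) with 10 points, and lower calls became 46 without opposite overlap. Several of these settings keep fewer genes or add a limit. The limit of 5 TPM kept 958 genes, that of 1 feature 671 and that on exon bases 574. Their counts are therefore not out of 1560, and a smaller count there is not a lower frequency of calls. The cause of the flow cell difference was not tested.

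Leaving out 1 library gave 133 to 151, 97 to 122 and 303 to 328 genes. With the replicate number as a block, limma called 0 genes in DIDO3ΔE16 against WT (242 or 270 at an unadjusted p under 0.05, with WT replicate 2-3 as number 2 or 3) and 0 in DIDO3ΔCT+HADIDO3 against WT (232 or 233), and 0 of their upstream and downstream sites (367 and 544, 473 and 587 unadjusted). WT replicate 4 has no mutant library of its number, so that the block against WT is incomplete and leaves little power. Its 0 calls cannot decide whether the changes hold. Between the mutant groups, where every number has a partner, the block left 285 genes (227, 58). The numbers did not pair the libraries, since same-numbered mutant libraries correlated at 0.018, 0.017 and 0.043 in their deviations from the group means, although each correlated best with its own number. Of 4792 values of 84 named genes under alternatives, 4531 kept direction and call, 237 lost the call, 23 gained it and 1 turned: Suv39h1, not called in DIDO3ΔE16 against WT, went from 0.02 to -0.74 (log2) without WT replicate 1, and to 0.44 without WT replicate 4. Shares of genes under a few TPM rest on few reads.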
